A study of Mus musculus with 6 samples.

Results

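The wild type lens of C57Bl/6 mouse embryos at stage E13.5, counted in embryonic days, was profiled by RNA sequencing in 3 libraries, each prepared from a pool of 30 lenses. These libraries, 1 to 3 in the numbering of the labels, are all the samples labelled wild type and make up 3 of the 6 samples in the series. The other 3 samples come from E13.5 lenses of Prox1 f/f MLR10Cre+ embryos, and they were not used. Polyadenylated RNA was sequenced as single-end reads of 51 bases from a kit that does not mark the strand of origin. The labels do not say whether the pools share litters or what the sex of the embryos was, so every spread given here is a spread between 3 pools and may be partly technical.

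The lens is built from 2 cell populations. An anterior epithelium proliferates and secretes the surrounding capsule, and its descendants leave the cell cycle and elongate into fibre cells. Fibre cells fill themselves with crystallins, the soluble proteins that give the lens its refractive power, and later degrade their organelles. At this stage of mouse development the first fibre cells have filled the lens vesicle, while blood vessels, pigmented epithelium and mesenchyme lie close to the lens outside it.

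The libraries held 21061582, 20731491 and 20812141 counts assigned to genes. A count was seen in any library for 19498 of 41104 features, and 12332 features reached a CPM of 1 in all of them, CPM being the count scaled to a common library total. At this depth a count of 0 allows up to 0.142 to 0.145 CPM, for counting error only. Library 1 stood apart from the others: the median absolute log2 ratio over the 9088 genes with a mean of at least 10 CPM was 0.22 between libraries 1 and 2, 0.24 between 1 and 3, and 0.10 between 2 and 3. Most genes were slightly higher in library 1 on the deposited CPM scale, with a median log2 ratio of 0.19 to library 2 and 0.21 to library 3. After scaling by the trimmed mean of M values (TMM), these medians were -0.03 and -0.01. A direction smaller than this shift is therefore given below under both scales.

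The 5 genes listed as markers of the wild type lens were all among the 17 genes of highest mean CPM. They were chosen with earlier results of these data known, so their high rank is no independent result. Cryaa, which encodes alpha A crystallin, stood at 64281, 93178 and 97440 CPM in libraries 1, 2 and 3. Crybb1, a beta crystallin, stood at 14539, 21933 and 24866 CPM. Capn3, a calcium-dependent protease, stood at 6093, 7560 and 7466 CPM. H19, an imprinted noncoding RNA, stood at 5309, 4964 and 4275 CPM. Mip, the water channel of the fibre cell membrane, stood at 2675, 4041 and 3943 CPM. Library 1 was the lowest of the 3 for Cryaa, Crybb1, Capn3 and Mip and the highest for H19 on this scale. After TMM scaling it was the lowest for the same 4 genes and no longer the highest for H19.

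A small number of genes held much of each library. Cryaa alone took 6.43%, 9.32% and 9.74% of the counts, and the 10 most abundant genes of each library took 14.8%, 20.97% and 21.8%. It took 730 genes to reach 50% of the counts in library 1, 464 in library 2 and 437 in library 3. The number needed for 90% was 5509, 5001 and 5016. By mean CPM 68 genes reached 1000, and the first 5 were Cryaa, Crybb3, Crybb1, Cryba1 and Lars2.

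By mean CPM, 13 of the first 30 genes were crystallins, which together took 19.01% of all counts. The list continued with 4 genes of the mitochondrial genome (mt-Cytb, mt-Co1, mt-Nd1 and mt-Nd5), 3 translation factors (Eef1a1, Eif4g2 and Eef2), and the imprinted pair H19 and Igf2, a growth factor. Single entries were the chaperone Hsp90ab1, the retinaldehyde dehydrogenase Aldh1a1 of the lens epithelium, the cell surface glycoprotein Cd24a, the fatty acid desaturase Scd2 and the ubiquitin ligase Nedd4. Cd24a stood at 2212, 3064 and 2975 CPM, with library 1 the lowest. Scd2 stood at 2749, 2657 and 2588 CPM and Nedd4 at 2536, 2073 and 1951 CPM, with library 1 the highest for both. After TMM scaling Scd2 was lowest in library 1.

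Lars2, the leucyl-tRNA synthetase of mitochondria, was the fifth gene by mean CPM and the only one of the first 12 with its highest value in library 1. Its CPM was 17390, 9692 and 8781, a mean of 11955 ± 4730 (SD, n = 3). It lies at chr9:123366927-123462666 in GRCm38. The length behind its RPKM was 3881 bases, beside an exon length of 11089 in the annotation. Whether all of its counts came from its messenger RNA was not tested, so its level is uncertain.

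**Figure D1:**
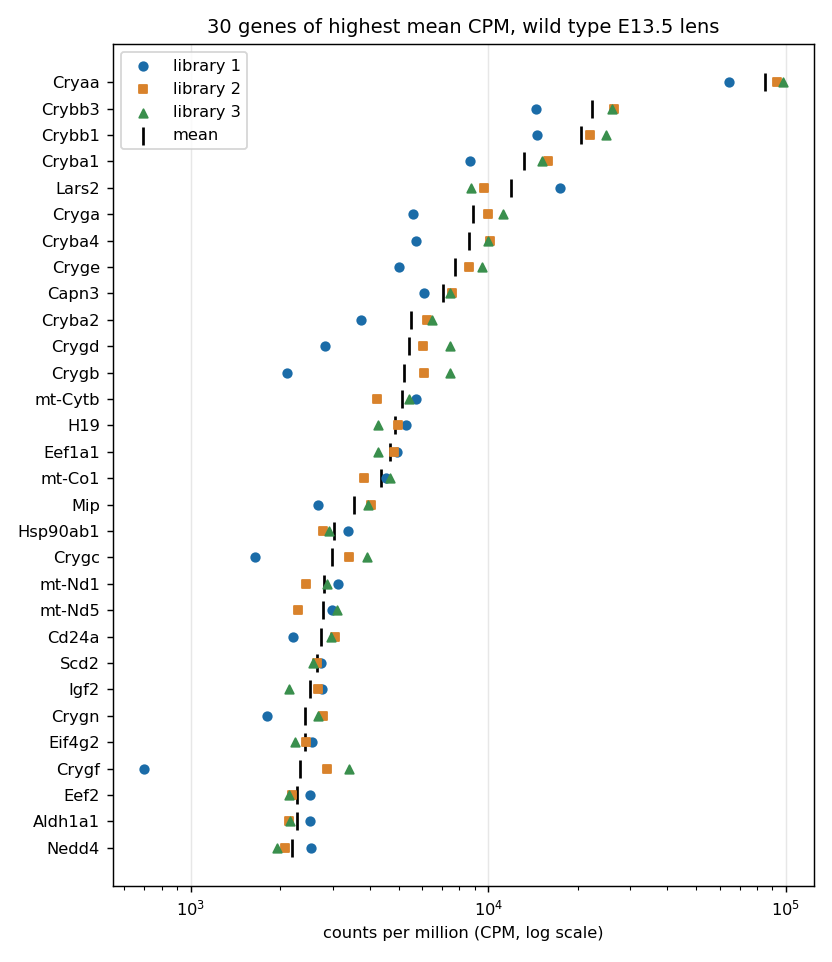
CPM (log scale) of the 30 genes of highest mean CPM in each wild type library, with the mean as a bar. The crystallins from Cryaa at 84967 CPM to Crygf at 2335 CPM have their lowest point in library 1, whereas Lars2 has its highest point there.

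The crystallins are the proteins by which a lens cell is recognised. The alpha crystallins are small heat shock proteins with chaperone activity, and the beta and gamma crystallins share a common structural fold. The 16 crystallin genes measured took 13.2% of the counts in library 1, 21.5% in library 2 and 22.7% in library 3, a mean of 19.1% ± 5.18 (SD, n = 3). The mean shares were 8.62% for the 2 alpha crystallins, 7.01% for the 6 beta crystallins and 3.52% for the 8 gamma crystallins. Per length of transcript, on the RPKM scale, in which the CPM is divided by the length in kilobases, Cryaa led with a mean of 71641 ± 15211 RPKM. Crybb1 followed at 20757 ± 5403, Cryga at 12221 ± 4021, Cryge at 10704 ± 3320 and Cryba4 at 10270 ± 2976 (SD, n = 3). From Cryga to Crygb in this order the SDs of neighbours overlapped, although all of these genes were lowest in library 1. Within libraries, Cryga exceeded Cryge, Cryba4 exceeded Crybb3 and Crybb3 exceeded Cryba1 in each of the 3. The order of Cryge and Cryba4 and that of Cryba1 and Crygb changed between libraries. Cryab, the other alpha crystallin, stood at 1046 RPKM and Crygs at 220.2 RPKM. Crybb2, a beta crystallin abundant in the lens after birth, was the lowest of the family by CPM at 4.13, 5.74 and 5.53 CPM.

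Sequences are shown upstream of Cryaa, Crybb3 and Crybb1, the crystallin genes of highest mean CPM, and of the gamma crystallin genes A to F. Those of Cryba1, Cryba4 and Cryba2, ranked 4, 7 and 10 by CPM, are not printed. The 6 gamma crystallin genes A to F, all on chromosome 1, had the order library 1, library 2, library 3 from low to high. That order was not particular to them. By CPM it held for 11 of 15 crystallins and 12 of 17 other fibre features at 10 CPM or more, beside 549 of all 9088 genes. Each line gives the 80 bases before the transcription start on the gene's strand, from RefSeq on GRCm38.p6, and capitals mark a TATATA or TATAAA run.
Cryaa, chr17:31677851-31677930, plus strand: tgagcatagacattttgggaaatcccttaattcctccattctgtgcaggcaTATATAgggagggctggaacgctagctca
Crybb1, chr5:112255740-112255819, plus strand: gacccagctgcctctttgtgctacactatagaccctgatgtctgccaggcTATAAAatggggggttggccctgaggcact
Crybb3, chr5:113081585-113081664, minus strand: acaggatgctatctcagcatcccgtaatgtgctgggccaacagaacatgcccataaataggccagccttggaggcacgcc
Cryga, chr1:65103364-65103443, minus strand: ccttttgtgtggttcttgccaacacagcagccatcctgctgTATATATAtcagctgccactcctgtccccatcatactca
Crygb, chr1:65082291-65082370, minus strand: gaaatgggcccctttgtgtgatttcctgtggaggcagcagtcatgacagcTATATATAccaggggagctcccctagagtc
Crygc, chr1:65073533-65073612, minus strand: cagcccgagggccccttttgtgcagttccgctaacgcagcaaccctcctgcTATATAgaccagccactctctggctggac
Crygd, chr1:65063441-65063520, minus strand: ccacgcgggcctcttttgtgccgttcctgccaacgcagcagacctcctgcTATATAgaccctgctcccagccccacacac
Cryge, chr1:65051164-65051243, minus strand: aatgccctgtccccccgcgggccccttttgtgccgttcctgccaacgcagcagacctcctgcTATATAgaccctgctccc
Crygf, chr1:65926442-65926521, plus strand: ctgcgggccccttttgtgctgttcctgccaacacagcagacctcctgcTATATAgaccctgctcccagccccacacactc

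All 6 gamma crystallin stretches held TATATA, as did Cryaa, whereas Crybb1 held TATAAA and Crybb3 neither. Among beta crystallins not printed, the same stretch held TATAAA in Cryba1 and neither run in Cryba4 and Cryba2. The longest run of letters shared by a pair of whole gamma promoter windows (250 bases before to 50 after the start) was 78 bases, between Crygd and Cryge. Crygd and Crygf shared a run of 64 bases and Cryge and Crygf one of 55, while no pair with Crygb exceeded 12. TATAAA or TATATA on the gene's strand began between 40 and 21 bases before the start in 10 of the 15 crystallin genes matched to a RefSeq promoter. Cryab was not matched. The same window held either run in 3.30% of all 27025 genes with a promoter and in 7 of 57 matched genes among the other members of the top 100 by CPM. TATATA was added after these sequences were seen, so the count for either run is not independent of them. TATAAA alone was chosen before, on either strand of the whole window and without a position. Counted so, it occurred in 4 of the 15 crystallin genes, in 15.67% of all genes with a promoter and in 11 of the 57. Between 40 and 21 bases before the start it began in 3 of the 15, in 2.41% of all genes with a promoter and in 3 of the 57. TGCTGA, the core of the element that Maf transcription factors recognise, occurred on either strand of the whole window in 10 of the 15 crystallin genes. It occurred in 21.7% of all genes with a promoter and in 14 of the 57 other abundant genes. These matches describe letters and show no binding.

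Library 1 had the lowest CPM for all 15 crystallins with a mean of at least 10 CPM, and the same held after TMM scaling. Library 3 was the highest for 11 of them and library 2 for the other 4. The ratio of highest to lowest CPM exceeded 2 for 5 of the 15 (Crygb, Crygc, Crygd, Crygf and Crygs), beside 2.99% of all 9088 genes at this level. After TMM scaling the ratio exceeded 2 for 12 of the 15, beside 2.22% of all genes.

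The classes of crystallin did not vary by the same factor. Summed alpha crystallin CPM was 65132, 94443 and 99043, a range of 1.52-fold. Summed beta crystallin CPM was 47113, 80611 and 82433, a range of 1.75-fold. Summed gamma crystallin CPM was 19796, 40011 and 45868, a range of 2.32-fold. Crygf had the widest range of the family, with 700.5, 2885 and 3418 CPM or 4.88-fold, followed by Crygb with 2101, 6107 and 7465 CPM or 3.55-fold. As a share of crystallin counts, which no scaling between libraries alters, Cryaa took 48.7%, 43.3% and 42.9%. Crygf took 0.530%, 1.34% and 1.504%, and Crygb took 1.59%, 2.84% and 3.28%. Library 1 thus held the largest share of Cryaa and the smallest of Crygf and Crygb. By 51-base words of annotated transcripts, the length of a read, Cryge shared 47.7% of its words with other genes, Cryga 42.3% and Crygf 31.6%, and the values of single gamma crystallins are uncertain to that extent. How the counting treated reads that match several genes was not stated in any source used here.

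The other fibre cell genes were measured as 22 features, because the files divide Lim2 into 3. They took 1.39%, 1.99% and 2.05% of the counts. Capn3 and Mip led, followed by Tdrd7, an RNA granule protein, at 1009, 1577 and 1624 CPM. Bfsp1, a subunit of the beaded filament, stood at 380.3, 1515 and 2089 CPM. Its partner Bfsp2 stood at 131.2, 300.4 and 361.2 CPM. Both beaded filament genes were lowest in library 1 and highest in library 3. Caprin2, an RNA-binding protein, stood at 775.8, 1368 and 1602 CPM, and the fibre membrane protein gene Lim2, in its second feature, at 360.0, 618.3 and 653.8 CPM. These 2 genes had the same order of libraries.

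Several fibre genes were scarce in library 1. Dnase2b, the nuclease that degrades DNA in maturing fibre cells, stood at 1.47, 16.5 and 24.8 CPM. Birc7, an inhibitor of apoptosis protein, stood at 1.66, 11.1 and 18.4 CPM. Hopx, a homeodomain cofactor, stood at 9.12, 30.4 and 38.3 CPM, and Lctl, a klotho family protein, at 0.950, 8.68 and 13.1 CPM. All 4 had the order library 1, library 2, library 3 from low to high. Library 1 was the lowest for 15 of the 17 fibre features at 10 CPM or more and for all 17 after TMM scaling, beside 1093 and 3800 of all 9088 genes. The highest over lowest ratio exceeded 2 for 6 of the 17, beside 2.99% of all genes, and for 7 after TMM scaling, beside 2.22%. Their median coefficient of variation (CV) was 21.5%, against 10.7% over all 9088 genes. Lgsn, a glutamine synthetase relative, had 1, 0 and 1 counts, and Lenep had 1, 7 and 7. Of the Lenep words, 99.1% were shared with the annotated gene Flad1.

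Genes of the lens epithelium differed in their order of libraries by CPM. Aldh1a1 stood at 2514, 2149 and 2161 CPM, the secreted Wnt modulator Sfrp1 at 1537, 1730 and 1629, and the matrix protein Sparc at 1509, 1421 and 1574. The gap junction gene Gja1 stood at 356.3, 191.4 and 257.4 CPM, the epithelial cadherin Cdh1 at 146.0, 177.8 and 179.4, and the growth factor receptor Pdgfra at 172.1, 197.1 and 212.6. Library 1 was the lowest for 3 of the 8 genes, Cdh1 and Pdgfra among them, and for 6 of the 8 after TMM scaling, when 5 had the order library 1, library 2, library 3 from low to high. None of the 8 exceeded a ratio of 2 by CPM. Their summed share was 0.640%, 0.603% and 0.620%, a narrower relative range than that of the fibre genes. On the CPM scale the sum was lowest in library 2, and after TMM scaling it was lowest in library 1 with a range of 1.13-fold.

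Among 26 transcription factors of lens development, Maf, an activator of crystallin genes, was the most abundant at 951.3, 1218 and 1188 CPM. Prox1, a homeodomain factor of fibre differentiation, stood at 906.9, 1024 and 1040 CPM. Pax6, the paired domain factor of early eye formation, stood at 509.1, 369.2 and 405.4 CPM. Maf and Prox1 were lowest in library 1, Pax6 was highest there, and the widest ratio of highest to lowest library among the 3 genes was 1.38, for Pax6. The small Maf gene Mafg stood at 259.7, 278.0 and 287.4 CPM, and Zeb2, a zinc finger repressor, at 191.6, 179.4 and 159.6. The heat shock factor Hsf4, which acts in fibre cells, stood at 74.3, 125.2 and 135.3 CPM, lowest in library 1 like most fibre genes. Foxe3, a forkhead factor of the epithelium, stood at 96.3, 83.7 and 98.5 CPM. The summed share of the 26 factors was 0.417%, 0.423% and 0.427%, the narrowest range of all 17 gene classes by CPM. After TMM scaling that range was 1.20-fold and no longer the narrowest.

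Sox1 and Sox2, factors known to act in lens formation, had 0 counts in all 3 libraries. Sox2 shares 0% of its 51-base words with other annotated genes and Sox1 0.753%. Sox2ot, the noncoding transcript that spans the Sox2 locus, stood at 103.8, 137.7 and 138.0 CPM. It was named after its values were seen. A 0 in these files, here and for the other genes listed at 0 below, does not show that a transcript was absent, since no source used here states how reads were assigned and which were left out.

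**Figure D2:**
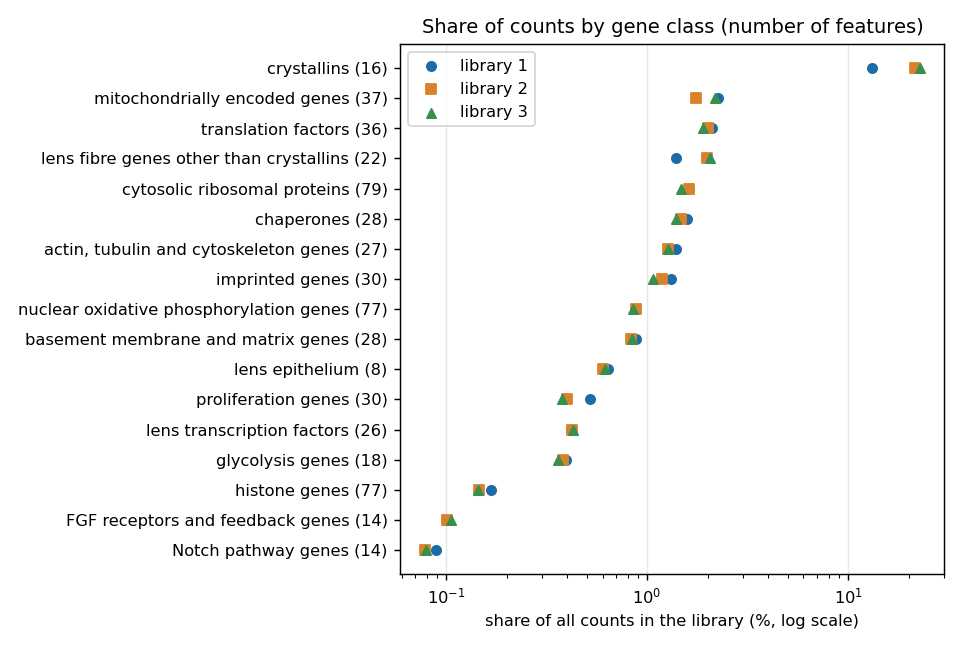
Share of all counts (%, log scale) taken by each gene class in each library, with the number of features in brackets. Crystallins take 13.2% to 22.7% and every other class under 2.3%, and the fibre genes follow the crystallins in having their lowest point in library 1.

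Gene classes that every cell uses took smaller shares than the crystallins. The 37 features of the mitochondrial genome took 2.26%, 1.75% and 2.18% of the counts. The 36 translation factors took 2.11%, 2.02% and 1.90%, and the 79 cytosolic ribosomal protein genes 1.61%, 1.61% and 1.47%. The 28 chaperones took 1.59%, 1.47% and 1.39%. The 27 genes of actin, tubulin and the cytoskeleton took 1.39%, 1.27% and 1.27%, and the 77 nuclear genes of oxidative phosphorylation 0.872%, 0.882% and 0.850%. The 18 glycolysis genes took 0.396%, 0.383% and 0.358%. Together the 17 classes held 28.9%, 36.7% and 37.9% of the counts in 567 features.

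The genes of the mitochondrial genome fell into separate levels. The 8 most abundant stood at means between 998.1 CPM (mt-Nd6) and 5126 CPM (mt-Cytb). The other 5 protein genes, mt-Nd4l, mt-Co3, mt-Atp6, mt-Nd3 and mt-Co2, stood between 0.239 and 23.7 CPM, although all 13 encode subunits of oxidative phosphorylation complexes. Those 5 share 98.0% to 100% of their 51-base words with other annotated genes. The 8 abundant ones share between 0% and 62.2%. mt-Co2, a subunit of cytochrome oxidase, had 7, 4 and 4 counts, while mt-Co1, another subunit of the same enzyme, stood at 4550, 3813 and 4691 CPM. The 2 ribosomal and 22 transfer RNA genes of mitochondria had no count. Library 2 was the lowest for all 11 mitochondrial genes at 10 CPM or more, and for 10 of 11 after TMM scaling.

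Ribosomal protein genes, whose products are needed in nearly equal numbers, ranged from 0 to 1589 CPM. Rpl4 stood at 1688, 1556 and 1521 CPM, Rps3 at 1010, 1122 and 918.6, and Rpl23 at 918.2, 918.5 and 877.4. Rpl8 stood at 867.0, 852.1 and 753.2 CPM and Rps9 at 824.1, 762.1 and 709.5. At the other end, Rps27 had 0 counts in each library, Rps12 had 0, 0 and 1, Rpl24 had 4, 7 and 12 and Rpl23a had 8, 19 and 11. The 13 ribosomal protein genes sharing under 10% of their words with other genes had a median of 399.4 CPM. The 7 sharing at least 50% had a median of 1.68 CPM. The share does not follow the level in every gene: Rps12 and Rps27 share only 24.8% and 24.9% of their words. Whether shared sequence set these levels was not tested. The spread between pools was small, with a median CV of 6.52% over the 69 genes at 10 CPM or more, and none exceeded a ratio of 2.

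**Figure D3:**
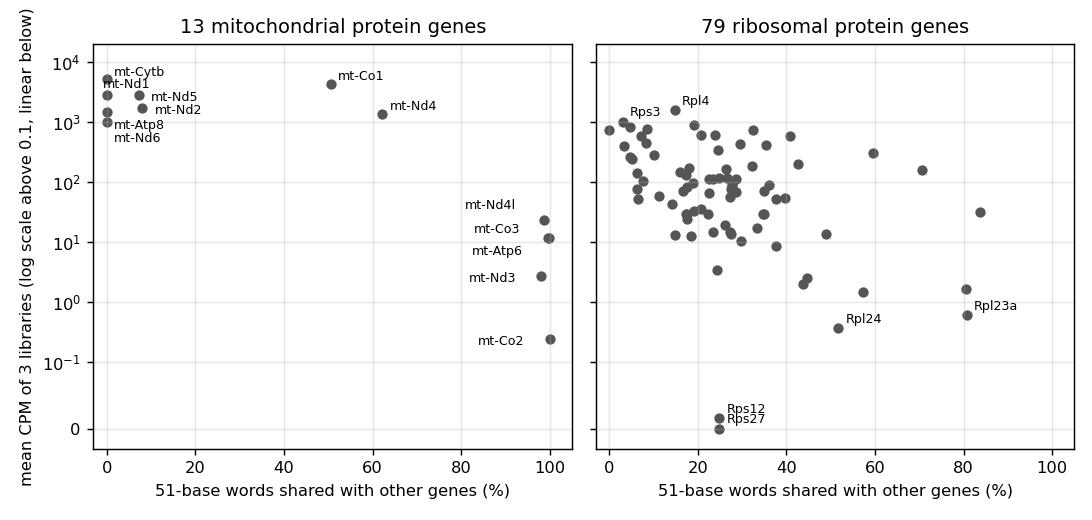
Mean CPM (log scale above 0.1) against the percentage of a gene's 51-base words that other annotated genes hold, for the 13 protein genes of the mitochondrial genome and the 79 ribosomal protein genes. The 5 mitochondrial genes at 98.0% or more lie at 23.7 CPM or lower, and the other 8 lie at 998.1 CPM or higher.

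Within the translation factors, Eef1a1, which delivers aminoacyl-tRNA to the ribosome, led at 4926, 4840 and 4280 CPM. Eif4g2, a relative of the initiation scaffold, stood at 2564, 2450 and 2239, and the elongation factor Eef2 at 2517, 2193 and 2139. The poly(A)-binding protein Pabpc1 stood at 931.2, 920.8 and 889.8 CPM and Eef1g at 818.6, 777.8 and 735.8. All 5 had the order library 3, library 2, library 1 from low to high on the CPM scale. After TMM scaling, library 1 was instead the lowest for 27 of the 36 factors, beside 3800 of all 9088 genes.

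Hsp90ab1, a cytosolic chaperone, stood at 3382, 2784 and 2930 CPM. The protein disulfide isomerase Pdia6 stood at 1062, 1104 and 1045 CPM, calnexin (Canx) at 827.2, 797.1 and 701.8, and the endoplasmic reticulum chaperone Hspa5 at 895.7, 691.8 and 625.2. Hspb1, the small heat shock protein, was at 1.09, 0.338 and 0.481 CPM. Thus all of the chaperones but Hspb1 were above 100 CPM on average. Hspb1 shares 49.9% of its 51-base words with other genes, most with the annotated Hsp25-ps1, so its low value is uncertain.

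Vim, which encodes the intermediate filament vimentin, led the cytoskeletal genes at 2198, 1971 and 2111 CPM. The tubulin Tubb5 stood at 2074, 1711 and 1565, the spectrins Sptbn1 and Sptan1 at means of 1621 and 1605 CPM, and the actin Actb at 1491, 1083 and 1156. Both spectrins were lowest in library 1 and highest in library 3. In glycolysis, the pyruvate kinase Pkm led at 1238, 1248 and 1169 CPM, while Gapdh stood at 42.0, 51.0 and 27.2. Gapdh shares 24.98% of its words with other genes, spread over 221 of them, so its low value is uncertain.

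The ATP synthase subunits Atp5b, at 1407, 1426 and 1342 CPM, and Atp5a1, at 817.8, 757.6 and 737.0, led the nuclear genes of oxidative phosphorylation. The complex III subunit Uqcrc2 followed at a mean of 263.5 CPM. Ndufa1, a complex I subunit, stood at 186.0, 251.6 and 267.9 CPM. Library 1 was the lowest for Ndufa1, whereas the other 3 were lowest in library 3 by CPM. After TMM scaling library 1 was the lowest for 64 of the 75 genes at 10 CPM or more, beside 3800 of all 9088 genes. None of the 77 was under 1 CPM in any library.

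Ranking per length changed the order, among the crystallins too: Crybb3 went from rank 2 by CPM to 6 by RPKM, and Cryga from 6 to 3. Of the 100 genes of highest CPM, 72 were also among the 100 of highest RPKM, and 24 of the first 30 were shared. The genes only in the top 100 by CPM had a median length of 6751 bases, and those only in the top 100 by RPKM 945 bases. mt-Atp8, annotated as a feature of 204 bases, was ranked 43 by CPM and 9 by RPKM, at a mean of 7085 RPKM. This RPKM rests on the length of the annotated feature, which need not be that of the RNA. The embryonic globin gene Hbb-y went from rank 72 to 26. In the top 100, 7 ribosomal protein genes by CPM became 16 by RPKM.

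The 10 largest shifts were of 3 long genes, lower by RPKM, and 7 short ones, higher by RPKM. Dst, a cytolinker, was ranked 151 by CPM at a mean of 533.4 and 3414 by RPKM at 14.7. Macf1, which links microtubules to actin, went from rank 189 to 2910, and the ubiquitin ligase Huwe1 from rank 206 to 2698. In the other direction the elongin subunit Tceb2 went from rank 3148 by CPM to 260 by RPKM, the mitochondrial import protein Timm8b from 3004 to 250, and Ndufb9 from 2657 to 296. The ATP synthase subunit Atp5k, the complex I subunit Ndufa2, the small protein gene 2010107E04Rik and Gm10800 made up the remaining 4 of the 10 largest shifts, all of them higher by RPKM. The length behind the deposited RPKM equalled the exon length of the GENCODE annotation for 51.9% of 12709 features and was under 0.5 of it for 9.32%, so the RPKM rank of a gene depends on the gene model used.

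The capsule around the lens is a basement membrane, and its genes were abundant. Col4a1 and Col4a2, the collagen IV chains, stood at 1700, 1729 and 1599 CPM and at 1272, 1364 and 1397 CPM. Nidogen 1 (Nid1) stood at 1333, 1650 and 1699 CPM, perlecan (Hspg2) at 666.9, 623.3 and 614.6, and Col4a5 at 596.5, 646.8 and 586.4. Among these 5 genes the widest ratio of highest to lowest library was 1.27, for Nid1. The highest over lowest ratio exceeded 2 for 10 of the 26 matrix genes at 10 CPM or more, and for 5 of them after TMM scaling, beside 2.99% and 2.22% of all genes. The 10 included the fibronectin gene Fn1 (410.6, 207.0 and 183.8 CPM), the fibrillin gene Fbn2 (297.3, 129.9 and 166.0) and Col6a2 (19.4, 5.93 and 24.1). Col4a3 stood at 0.522, 0.482 and 1.01 CPM and Col4a4 below 1 CPM in all libraries.

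Proliferation genes were all detected above 1 CPM. Ccnd2, the D-type cyclin, led at 922.8, 854.5 and 668.2 CPM, followed by Ccnd1 at 478.1, 451.4 and 374.9. The topoisomerase Top2a stood at 483.2, 346.0 and 341.1 CPM, Cdk4 at 406.1, 298.7 and 301.1, and the proliferation antigen Mki67 at 432.5, 262.8 and 307.5. Library 1 was the highest for all 28 proliferation genes at 10 CPM or more and for 25 of the 28 after TMM scaling. Over all 9088 genes library 1 was the highest for 6808 on the CPM scale and for 3294 after TMM scaling. None of the 28 exceeded a ratio of 2, and the summed share was 0.518%, 0.400% and 0.376%. The sum ranged 1.38-fold by CPM and 1.18-fold by TMM.

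Cdkn1c, the imprinted gene of a cyclin-dependent kinase inhibitor, was lowest in library 1 at 898.2, 1024 and 996.8 CPM. Within the imprinted genes it followed H19 and Igf2, the latter at 2762, 2676 and 2136 CPM. The adaptor gene Grb10 stood at 868.0, 551.4 and 517.8 CPM and Mest at 682.3, 524.6 and 505.6. Both were highest in library 1. The 30 imprinted genes took 1.31%, 1.19% and 1.07% of the counts, most of it from H19 and Igf2. Zrsr1 and Kcnq1ot1 had 0 counts, Ascl2 had 2, 0 and 4, and Phlda2 had 9, 2 and 4.

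Fibroblast growth factors from the ocular media drive fibre differentiation through receptor tyrosine kinases. Fgfr3 was the most abundant of the receptor kinase genes at 205.5, 276.1 and 297.5 CPM, a mean of 37.6 RPKM per length. Fgfr1 stood at 15.04 RPKM and 130.5, 113.9 and 121.9 CPM, and Fgfr2 at 13.4 RPKM and 101.1, 85.2 and 105.4 CPM. Fgfr4 had 7 counts in each library. The decoy receptor gene Fgfrl1 stood at 100.5, 140.8 and 157.1 CPM and was higher than Fgfr3 per length. Fgfr3 and Fgfrl1 were lowest in library 1, while Fgfr1 was highest there by CPM but no longer after TMM scaling. After TMM scaling the summed CPM of the 14 genes was lowest in library 1, at a range of 1.23-fold. Among inhibitors of the pathway, Spred1 stood at 122.1, 102.5 and 94.5 CPM, Spry1 at 64.0, 60.1 and 63.4, Spry2 at 48.9, 56.6 and 55.0, and the phosphatase gene Dusp6 at 68.2, 48.7 and 44.8.

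In the Notch pathway, which keeps epithelial cells from differentiating, the ligand gene Jag1 led at 382.9, 413.5 and 435.4 CPM. The receptors Notch2 (74.8, 53.6 and 58.5 CPM), Notch1 (75.9, 52.7 and 42.8) and Notch3 (63.0, 41.7 and 39.0) were lower, as was the modifier Lfng (61.9, 66.7 and 53.1). Per length Jag1 stood at 70.5 RPKM and the 3 receptors between 4.01 and 5.96 RPKM. The receptors were highest in library 1 under both scales, and Jag1 was lowest there. None of the 11 Notch pathway genes or 13 FGF pathway genes at 10 CPM or more exceeded a ratio of 2.

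Genes of cells that lie outside the lens were present in every library. Erythroid markers were the most abundant, with summed CPM of 2618, 1237 and 659.0. The embryonic globin Hbb-y stood at 1800, 789.3 and 321.1 CPM, Hba-x at 268.1, 68.3 and 39.0, and Hbb-bh1 at 41.2, 13.3 and 3.94. The adult-type Hbb-bs stood at a mean of 149.8 CPM, highest in library 2. The 3 embryonic globins together ranged 5.79-fold among the libraries and the 4 adult globins 1.65-fold. The adult globins share between 53.15% (Hbb-bs) and 89.11% (Hba-a2) of their 51-base words with other genes, and the embryonic ones 0%. The values of the adult globins are uncertain to that extent. The erythroid factor Klf1 was under 1 CPM in all libraries.

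Endothelial genes had the same order of libraries as the embryonic globins. Cdh5, the vascular cadherin, stood at 134.4, 79.5 and 52.2 CPM, and the receptor Kdr at 108.1, 65.2 and 47.3. All 10 endothelial markers were highest in library 1 and lowest in library 3 by CPM, and 9 of 10 after TMM scaling. Over all 9088 genes this order held for 3728 by CPM and 1621 after TMM scaling. The endothelial sums were 543.9, 339.6 and 250.7 CPM. Their ratio of highest to lowest exceeded 2 for 7 of 10 by CPM, beside 2.99% of all genes, and for 2 of 10 after TMM scaling, beside 2.22%. The 11 macrophage markers, led by Csf1r, summed to 108.5, 70.0 and 45.4 CPM.

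Summed mesenchyme and pigment cell markers were lowest in library 2. The collagen gene Col1a1 stood at 90.9, 36.9 and 133.0 CPM, Col3a1 at 212.8, 101.8 and 96.5, and the proteoglycan gene Lum at 62.5, 21.6 and 43.0. Of 10 mesenchyme markers at 10 CPM or more, 9 exceeded a ratio of 2 by CPM and 7 after TMM scaling, beside 2.99% and 2.22% of all genes. Library 2 was the lowest for 7 of the 10, beside 3478 of all 9088 genes by CPM. Pmel, a protein of the melanosome, stood at 88.3, 23.3 and 62.9 CPM and the melanin enzyme gene Dct at 37.0, 9.79 and 23.9. The summed pigment markers stood at 221.2, 82.3 and 168.0 CPM, and Rpe65, of the retinal pigment epithelium, had 0 counts.

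Retinal markers summed to 990.1, 603.3 and 620.4 CPM, with library 1 the highest under each scaling tried. Sfrp2 made up the largest part at 488.3, 283.6 and 289.2 CPM, followed by Fgf15 at 161.8, 129.8 and 131.8. Neuronal markers summed to 170.3, 160.6 and 102.7 CPM, surface ectoderm markers to 44.3, 22.4 and 34.3, and skeletal muscle markers to 18.8, 28.9 and 43.2. Except for muscle, these sums were highest in library 1 by CPM, the library of the lowest crystallin share. TMM scaling put the neuronal sum highest in library 2. The part of neighbouring tissue in the differences between pools was not tested. A larger number of cells of a type and more RNA per cell cannot be told apart in pooled lenses.

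**Figure D4:**
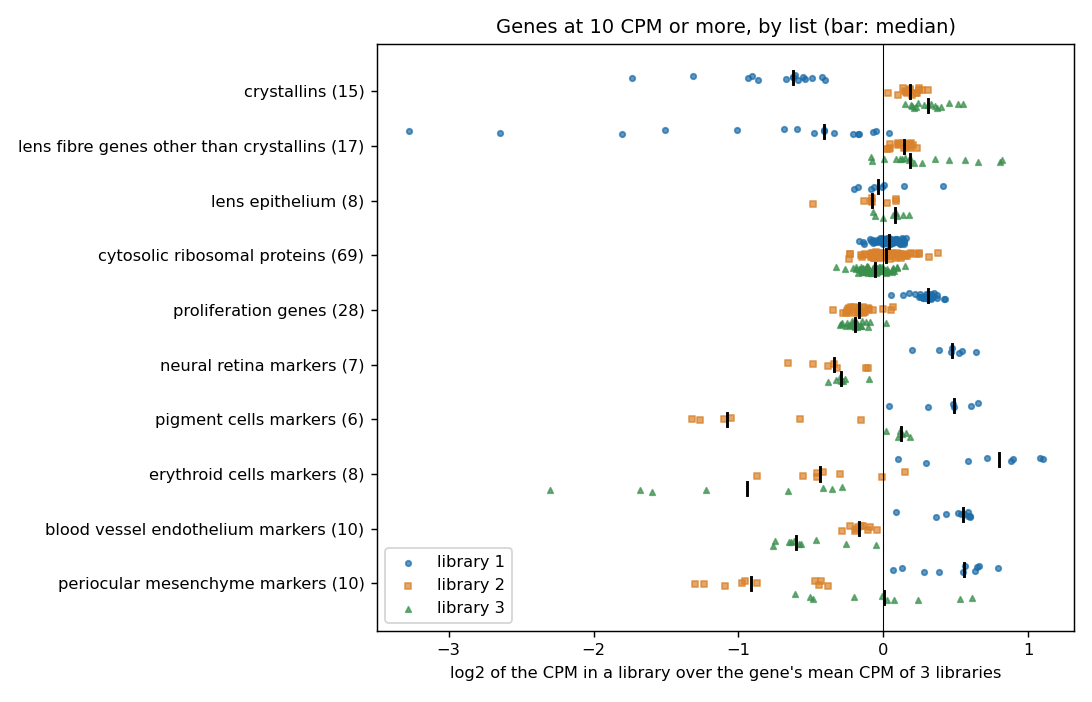
For genes at 10 CPM or more, the log2 of the CPM in each library over the gene's mean CPM of 3 libraries, grouped by list, with the median as a bar. All 15 crystallins lie below 0 in library 1, all 28 proliferation genes and all 10 endothelial markers lie above 0 there, and ribosomal protein genes lie close to 0 in all libraries.

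The spread between pools was larger than counting error for most genes. Over the 9088 genes at 10 CPM or more the median CV was 10.7%, while counting error alone gives a median of 3.36%. The CV was below its counting error for 667 of them. After TMM scaling the median CV was 7.90%. The 68 genes at 1000 CPM or more had a median CV of 11.8%, and 7 of them exceeded a ratio of 2; between 300 and 1000 CPM the median was 8.23%, and 3 of 315 genes did so. Of the 272 genes above a ratio of 2, 125 were highest in library 1 and lowest in library 3, 91 were highest in library 1 and lowest in library 2, and 45 were highest in library 3 and lowest in library 1. Only 11 had another order. Without library 1 the number above a ratio of 2 was 28, without library 2 it was 186 and without library 3 it was 156.

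Among the 25 genes of highest CV, those lowest in library 1 included known fibre genes and several others. Nlrc5, an immune regulator, had the highest CV at 101.3%, with 0.237, 12.4 and 27.0 CPM. The transmembrane protease gene Tmprss11e stood at 0.190, 13.8 and 27.3 CPM, the secreted metalloprotease gene Pappa at 1.80, 16.5 and 28.7, and the ubiquitin ligase gene Rnf180 at 3.99, 17.1 and 25.5. The noncoding Gm20757 stood at 14.5, 63.9 and 83.0 CPM and Gm15417 at 3.23, 14.8 and 19.6. With Dnase2b, Birc7 and Bfsp1, these made 9 of the 25, all with library 1 lowest and library 3 highest, under each scaling tried.

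The other 16 of the 25 were highest in library 1. They included Hba-x, Hbb-bh1, Hbb-y and Slc4a1, the anion exchanger of red cells, at 27.9, 11.0 and 6.49 CPM. Tfap2b, an AP-2 factor, stood at 50.8, 15.2 and 17.4 CPM. Aldh1a2, a retinoic acid synthesis enzyme, stood at 24.4, 13.6 and 4.42 CPM, and Cyp1b1 at 41.4, 15.2 and 14.7. Crym, the amino acid transporter gene Slc38a8, Pou2f2, Nrp2, the matrix gene Smoc1, the immediate early gene Egr1 and the loci Gm10800 and Gm10801 were also among the 16.

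The 15 genes of lowest CV among those at 100 CPM or more were spread over several cell functions. Erp29, a protein of the endoplasmic reticulum, stood at 129.1, 128.8 and 129.1 CPM. The protease gene Adam17 stood at 147.6, 147.3 and 146.9 CPM, and the junction gene Jam3 at 180.9, 181.0 and 179.9. Epb4.1l2, Bsg, Eif4e and Tspan3 followed, and the highest CV of the 15 was 1.08%, for Dctn2. All 15 CVs were below the counting error of the gene. After TMM scaling their CVs were 7.56% to 8.92%, and 0 of the 15 remained among the 15 lowest, so this set depended on the scale.

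**Figure D5:**
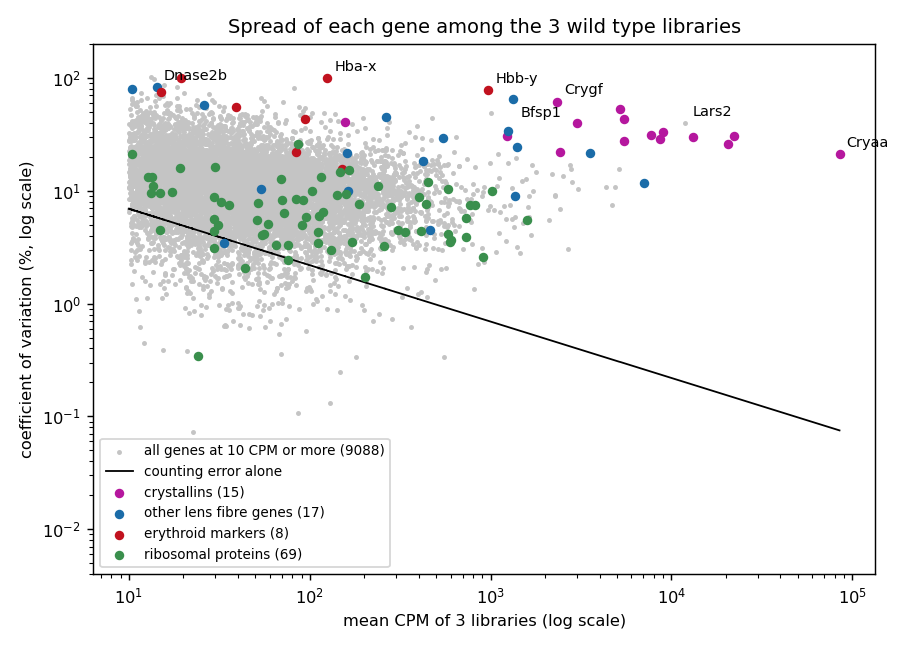
CV of the CPM in the 3 libraries (%, log scale) against mean CPM (log scale) for 9088 genes, with the CV that counting error alone gives as a line. Crystallins and several fibre genes such as Bfsp1 lie above most genes of their abundance, as do the embryonic globins Hbb-y and Hba-x, while most ribosomal protein genes have a lower CV than the median of 10.7%.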

How the data were processed

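Each wild type library's file holds, per gene, the count of reads, CPM and RPKM; per the file headers these are raw, cpm and rpkm columns deposited by the authors. The CPM equal the counts over the library total within 1e-06, except for 24 features with names differing in case, whose values are exchanged. They hold 0.0424% to 0.0504% of the counts and were left out. GRCm38 and edgeR are listed per the submitters' processing notes. Aligner, counter, annotation and the handling of reads that match several genes were not given in the sources used here. The 3 knockout files were not used, and no test was made.

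From the deposited values, means, SDs, CVs, ratios and shares were computed with Python 3.11.15 and pandas 2.3.3, and TMM and DESeq2 size factors with edgeR 4.0.16 and DESeq2 1.42.0 in R 4.3.3. The CV measure was checked on simulated counts. Identifiers or names matched GENCODE M21 for 37989 features and RefSeq promoters by symbol. All library pairs differed beyond counting error in many genes (69.4%, 73.3% and 39.4% of 9088 for pairs 1-2, 1-3 and 2-3), so none is a copy. The members and lists were chosen with earlier results of these data known.

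Named are the 5 markers, the 30 genes of highest mean CPM and of highest mean RPKM, the 10 largest rank shifts among the 300 first of either, in each list the 5 highest members and those under 1 CPM in all libraries, the 25 most variable genes (mean of at least 10 CPM), the 15 least variable (at least 100 CPM) and the 10 most abundant noncoding features. Further members of these lists, Sox2ot and AY036118 were added after their values were seen. A few genes that the rule names are not reported here. Of the 80 bases printed per promoter and the motifs searched, TATATA was added after the sequences were seen. The alternatives tried were TMM and DESeq2 scaling, CPM outside the crystallins, other filters and lengths, and leaving out each library.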

Additional observations from a re-analysis of the deposited data

How the results depend on the processing

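No paired analysis was possible because no test between groups was made. With counts outside the crystallins as the denominator, the share was 1.94% for ribosomal protein genes and 2.55% for mitochondrial genes, 14 of 14 other class shares moved by more than 1 SD by construction (2 of 14 with mitochondrial counts left out of the denominator), and 1024 genes, in place of 542 by mean CPM, held 50% of the counts. Of the 42 values of those 14 shares that leave out a library, none moved so far, also by construction. Leaving out 1 of 3 libraries cannot move a mean by 1 SD of the 3, so this count shows nothing about stability. The rankings shared 36 genes in the top 50 and 302 in the top 500. The number of genes above a ratio of 2 was 983 with a mean of at least 1 CPM, 22 with at least 100 CPM, 3064 with a count in every library, 204 with DESeq2 size factors, and 28 to 186 when a library was left out. The median CV was 5.03% to 11.8% when a library was left out, the lowest without library 1. Library 1 was lowest for 1093 genes by CPM, 3800 by TMM and 3943 by DESeq2 size factors, and library 3 for 4517, 2736 and 2647. With means of at least 30 and 300 CPM, 5 of the 25 most variable and 2 of the 15 least variable genes were named again, since fewer genes pass; with TMM 20 and 0 were, and with the SD of log2 CPM 19 and 15. Depth limits low genes most: counting error alone gives a median CV of 5.12% between 10 and 30 CPM and 1.06% between 300 and 1000 CPM.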

Other observations

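Noncoding RNA was dominated by a few transcripts. Long intergenic RNAs took 0.960%, 0.878% and 0.858% of the counts, and H19 was the most abundant of them. Malat1, a nuclear RNA, stood at 832.5, 1165 and 1283 CPM, lowest in library 1. Gas5, a host gene of small nucleolar RNAs, stood at 488.9, 489.3 and 503.0 CPM with a CV of 1.63%. Six3os1, the opposite-strand transcript of Six3, stood at 286.1, 244.7 and 277.7 CPM, Rian, from an imprinted locus, at 285.6, 238.8 and 281.4, Tug1 at 295.1, 232.3 and 234.0, and 1700020I14Rik at 299.6, 282.7 and 248.1. Cct6a, a chaperonin subunit, is listed among noncoding features only by its annotated type. Gm26847, at chr10:128230590-128232790 on the minus strand, overlaps the end of Mip at chr10:128225838-128231812 on the plus strand and shares 60.0% of its 51-base words with other genes, most with Mip. It stood at 248.3, 362.6 and 377.1 CPM, a range of 1.52-fold beside 1.51-fold for Mip, and reads from the part where the pair overlaps cannot be told apart without strand.

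Gm26917, a noncoding feature at chr17:39843013-39846341, stood at 1567, 656.0 and 782.1 CPM. AY036118, next to it at chr17:39847113-39848035, stood at 55.3, 24.2 and 28.9 CPM. Both were highest in library 1, as were Lars2 (17390, 9692 and 8781 CPM), Gm10800 (156.6, 28.1 and 61.1) and Gm10801 (35.7, 6.22 and 13.4). What these loci have in common was not tested.

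Most replication-dependent histone messages lack a poly(A) tail. The 70 such genes summed to 166.7, 191.8 and 184.5 CPM, and 17 had no count. The 77 histone genes, variants included, shared a median of 46.55% of their 51-base words with other genes. Among those without a count, Hist2h2aa1 and Hist2h3b shared 100% of their words, whereas Hist3h2a shared 31.44%. Whether the missing tail or shared sequence set these levels was not tested. The 7 histone variant genes, led by H3f3b at 535.6, 424.8 and 405.8 CPM and H1f0 at 367.2, 340.5 and 354.1, summed to 1509, 1256 and 1250 CPM. Xist, expressed from the inactive X chromosome, stood at 16.4, 4.20 and 12.3 CPM, and 4 genes of the Y chromosome (Eif2s3y, Ddx3y, Uty, Kdm5d) summed to 129.2, 213.0 and 144.5 CPM. Each pool thus held counts of both, and library 2 had the lowest Xist and the highest Y-linked sum.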
